A study of Mus musculus with 9 samples.

Results

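The mitochondrial ribosomal proteins are the proteins built into the ribosome that works inside mitochondria. Their genes were taken as every protein-coding gene of the GRCm38 mouse annotation whose symbol starts with Mrpl or Mrps and a number. That gave 78 genes, 49 named Mrpl and 29 named Mrps, of 55573 genes in the count files. They lie on 17 chromosomes, and 5 pseudogenes with such symbols were left out. By their place in the human mitoribosome structure 51 belong to the large subunit and 26 to the small one, since Mrps30 and Mrps18a sit in the large subunit despite their names. Mrps36, known as a part of the alpha-ketoglutarate dehydrogenase complex, is no stable part of either.

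The libraries were made from splenic T cells of B6 mice, labelled CD4+, in 3 groups of 3 libraries. Cells activated at 39 °C, a febrile temperature, and cells activated at 37 °C were kept for 3 hours in wells that carried anti-CD3 and anti-CD28 antibodies, which engage the T cell receptor and its costimulator. Naive cells, the third group, were not activated. No group carries a gene alteration. The labels do not give the age of the mice, whether each library stands for a mouse or culture of its own, or whether naive cells spent the same time in medium. The p-values therefore measure only the spread between these libraries, which may be technical. The culture protocol speaks of spleen cells, and at which step CD4+ cells were taken from them is not stated.

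Mitochondria keep a small genome of their own that encodes subunits of the respiratory chain and ATP synthase together with the ribosomal and transfer RNAs that translate them. Every protein of their ribosome is encoded in the nucleus, made in the cytosol and imported. Some have counterparts in bacterial ribosomes and others are found only in mitochondria. The mitoribosome is fixed to the inner membrane, and loss of its proteins impairs oxidative phosphorylation. T cells that leave quiescence enlarge their mitochondria and need mitochondrial translation to go on to divide and to make cytokines.

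Total counts ranged from 12647692 to 17605549 per library, and the 78 genes together took 0.215% to 0.281% of them. The defining T cell genes Cd4, Cd3e, Cd3d, Cd3g, Trac, Cd28, Lck and Tcf7 summed to 5198 to 5468 CPM at 39 °C, 5014 to 5257 CPM at 37 °C and 5727 to 6850 CPM in naive cells, where CPM is the count scaled to a common library size. Of these 8 T cell genes 4 fell and 1 rose at 37 °C, and 3 fell and 0 rose at 39 °C. Beside them 31.8% of all genes tested fell and 30.9% rose at 37 °C, and 29.8% and 29.2% at 39 °C. Summed markers of other spleen cells were lower in activated libraries too. The 10 B cell markers summed to 289 to 301 CPM at 39 °C, 263 to 277 CPM at 37 °C and 766 to 916 CPM in naive cells, and 9 of them fell and 1 rose at 37 °C. The 6 red cell markers summed to 2.94 to 4.18 CPM at 39 °C, 2.79 to 3.22 CPM at 37 °C and 135 to 225 CPM in naive cells, and the 5 stromal markers to 157 to 162 CPM at 39 °C, 131 to 136 CPM at 37 °C and 296 to 318 CPM in naive cells. Only 1 of the 5 stromal markers passed the count filter, so their sum rests almost wholly on that gene. The 2 CD8 T cell markers summed to 12.6 to 14.6 CPM at 39 °C, 13.5 to 15.1 CPM at 37 °C and 25.8 to 36.1 CPM in naive cells, and the 6 NK cell markers to 6.48 to 9.7 CPM at 39 °C, 10.1 to 11.3 CPM at 37 °C and 13.8 to 16.5 CPM in naive cells. The 9 myeloid markers summed to 9.54 to 13.2 CPM at 39 °C, 8.93 to 11.9 CPM at 37 °C and 18.4 to 24.9 CPM in naive cells, and the 4 neutrophil markers reached at most 0.125 CPM at 39 °C, 0.0714 CPM at 37 °C and 3.23 CPM in naive cells. Of these markers 2 of the 6 for NK cells, 4 of the 9 for myeloid cells and 1 of the 4 for neutrophils passed the count filter. Ly6g, Retnlg, C1qb and C1qc were at 0 in all libraries of both activated groups, as were Col1a2 at 39 °C and Klra4, S100a9 and Cdh5 at 37 °C. The part of these cells in the values below was not tested, and in bulk RNA fewer cells of a type and less RNA per cell cannot be told apart.

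Promoters are shown for 3 genes that were higher in activated cells and for Mrpl58, the member with the largest fall, so that the letters upstream of both kinds can be compared. Each window is 300 bases long, runs 5′ to 3′ from 250 bases before to 50 after the start of the gene in RefSeq (GRCm38.p6), and lies in the build the counts use. RefSeq starts can differ from those of the annotation that named the genes. Capitals mark matches, on either strand, to letters that nuclear respiratory factor 1 (NRF1; GCGCA, any base, then GCGC, or the shorter TGCGCA), ETS factors such as GABP (CCGGAAG) and Sp1 (GGGGCGG) are known to bind. The capitals of adjoining Sp1 matches overlap in Mrps6.
Mrps6 promoter, chr16:92058086-92058385, plus strand: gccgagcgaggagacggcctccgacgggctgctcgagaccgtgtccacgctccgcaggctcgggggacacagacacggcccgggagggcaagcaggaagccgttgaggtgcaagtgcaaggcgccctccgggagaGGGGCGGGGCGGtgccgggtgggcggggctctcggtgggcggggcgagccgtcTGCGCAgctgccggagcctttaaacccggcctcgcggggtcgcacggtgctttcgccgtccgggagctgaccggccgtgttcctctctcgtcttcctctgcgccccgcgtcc
Mrps18b promoter, chr17:35916391-35916690, minus strand: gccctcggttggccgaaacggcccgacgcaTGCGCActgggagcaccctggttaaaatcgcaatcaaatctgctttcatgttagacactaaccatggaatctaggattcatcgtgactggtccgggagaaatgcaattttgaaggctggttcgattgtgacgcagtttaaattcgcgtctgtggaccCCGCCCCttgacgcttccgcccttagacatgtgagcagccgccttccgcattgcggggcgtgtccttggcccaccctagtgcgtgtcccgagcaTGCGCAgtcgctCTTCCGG
Mrpl12 promoter, chr11:120484387-120484686, plus strand: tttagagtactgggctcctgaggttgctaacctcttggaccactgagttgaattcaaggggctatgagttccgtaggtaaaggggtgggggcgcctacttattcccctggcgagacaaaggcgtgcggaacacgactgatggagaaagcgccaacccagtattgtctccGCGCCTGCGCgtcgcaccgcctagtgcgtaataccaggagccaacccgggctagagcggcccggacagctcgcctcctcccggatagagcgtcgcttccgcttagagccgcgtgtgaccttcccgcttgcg
Mrpl58 promoter, chr11:115403502-115403801, plus strand: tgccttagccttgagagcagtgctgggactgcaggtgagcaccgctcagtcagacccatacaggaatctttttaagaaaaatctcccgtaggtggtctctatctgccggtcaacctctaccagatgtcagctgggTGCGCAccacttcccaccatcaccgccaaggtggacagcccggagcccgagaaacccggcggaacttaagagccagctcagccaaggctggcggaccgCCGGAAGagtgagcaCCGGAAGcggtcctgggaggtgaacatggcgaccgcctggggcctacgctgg
Mrps6 carried 2 Sp1 matches and 1 TGCGCA, Mrps18b carried 2 TGCGCA, 1 ETS and 1 Sp1 match, Mrpl12 carried 1 full NRF1 match, and Mrpl58 carried 2 ETS matches and 1 TGCGCA. Mrpl48 and Mrpl34, which also fell and are not shown, carried 1 Sp1 match and 1 ETS match in that order.

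Over the 69 genes with a window, found by symbol, the ETS letters were present in 36.2% of promoters, against 19.9% of the 8891 promoters of all protein-coding genes that passed the count filter and 9.12% of all 27025. The full NRF1 letters were in 18.8% of the members, against 11.4% and 4.78% of those sets, and the TGCGCA letters in 30.4%, against 15.4% and 8.06%. The letters AAGATGGC of the factor YY1 were in 17.4%, against 5.12% and 2.88%. The Sp1 letters were in 34.8% of the members, against 44.3% and 23.4%, and the E-box CACGTG, bound by Myc among others, in 7.25%, against 10.4% and 7.24%. The full NRF1 letters do not hold the TGCGCA letters, which need a base beyond their end, but a TGCGCA match can partly overlap a full match. Median GC content was 58.3% in the members' windows, 61.0% in those of tested protein-coding genes and 52.7% in all. A match here is a run of letters, not a shown binding site.

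A total of 77 of the 78 genes passed the count filter. The exception was Mrpl53, a large-subunit protein, which was listed at 0 counts in all 9 libraries. On chromosome 6 (GRCm38, chr6:83109040-83109939, plus strand) 88.0% of its exon bases lie within exons of the predicted gene Gm42688 on the same strand. Gm42688 itself was listed at 0.976 to 1.27 CPM at 39 °C, 0.345 to 0.929 CPM at 37 °C and 1.17 to 2.1 CPM in naive cells. How the counting treated reads that fall in both genes is not given in the sources used here.

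Per length of exon, in RPKM (CPM per kilobase), the 77 genes ranged from 2.28 to 47.8 with a median of 11.3 over all libraries, with quartiles at 7.44 and 19.9. Mrpl24, counterpart of a bacterial protein at the exit of the peptide tunnel, led with 49.1 ± 1.18 RPKM at 39 °C, 49.5 ± 1.98 at 37 °C and 44.9 ± 2.04 in naive cells (SD, n = 3). Mrpl52 followed with 45.6 ± 3.25 RPKM at 39 °C, 39.3 ± 3.2 at 37 °C and 42.6 ± 10.2 in naive cells, and Mrpl54 with 45.1 ± 6.3 RPKM at 39 °C, 40.0 ± 2.98 at 37 °C and 39.6 ± 9.91 in naive cells. The levels of Mrpl52 and Mrpl54 did not differ beyond their spread in any group. At the low end Mrpl48 had 2.28, Mrps25 2.64 and Mrps35 3.29 RPKM over all libraries. The order depends on the length used. With the longest transcript as the length, Mrpl24 still led with 80.5 RPKM, but Mrps21 came next with 61.1, ahead of Mrpl54 with 56.8 and Mrpl52 with 55. The lowest was then Mrps25 with 2.86, followed by Mrpl1 with 4.07 and Mrpl48 with 4.33, while Mrps35 with 6.17 RPKM held rank 69 of the 77. Separately, 26.3% of the exon bases of Mrpl24 and 69.8% of those of Mrps25 also belong to a gene on the other strand (Rrnad1 and Nr2c2), and whether counting used the strand is not given in the sources used here.

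Libraries of a group did not vary independently across the 77 genes. Of the 77, 70 were highest within the naive group in library 1 and 70 were lowest in library 2, against 44.0% and 40.7% of all 13328 genes tested. At 39 °C library 1 was the highest in 55 and library 3 the lowest in 58, and at 37 °C library 2 was the lowest in 54, against 36.7%, 36.8% and 35.5% of all genes in that order. Their summed level was 2843, 2699 and 2528 CPM at 39 °C, 2649, 2493 and 2675 CPM at 37 °C and 2764, 2054 and 2348 CPM in naive cells. The groups overlap in this sum, and its widest spread lies among the naive libraries. The genes of cytosolic ribosomal proteins followed the same order, with 79 of 82 highest in naive library 1 and 80 lowest in naive library 2, and summed to 104319, 95107 and 85039 CPM at 39 °C, 88214, 80452 and 92103 CPM at 37 °C and 153224, 100785 and 123317 CPM in naive cells. The median coefficient of variation of the 77 genes was 7.47% at 39 °C, 6.23% at 37 °C and 16.7% in naive cells. Among 3476 other protein-coding genes with mean levels of 14.8 to 57.8 CPM it was 6.06%, 5.27% and 10.4%.

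**Figure D1:**
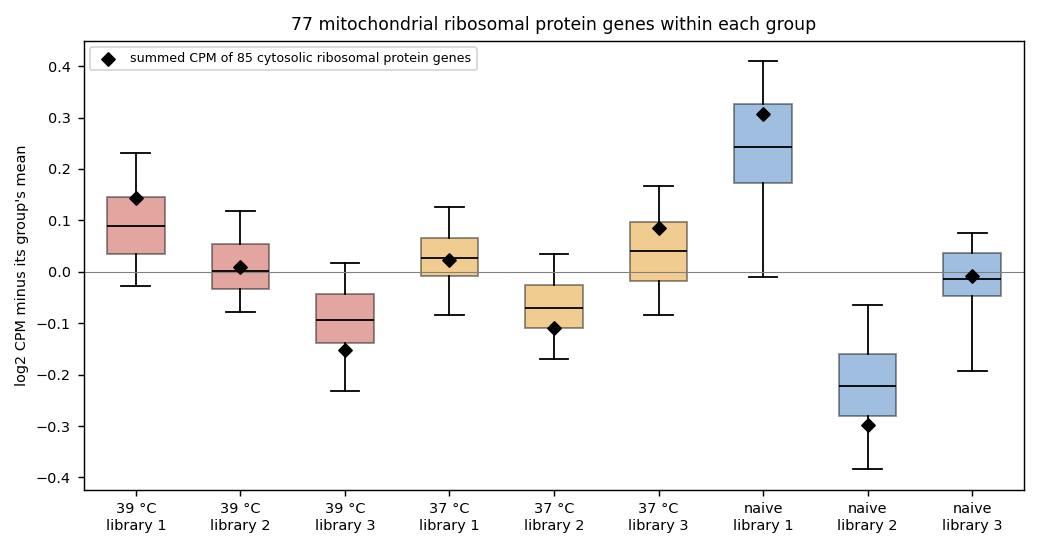
Log2 CPM of the 77 tested genes minus the mean of each gene's group (y axis), as a box per library with the median and quartiles and whiskers at the 5th and 95th percentiles, with 39 °C, 37 °C and naive libraries from left to right. Diamonds give the same for the summed CPM of the cytosolic ribosomal protein genes. Naive library 1 is the highest of its group in 70 of the 77 genes, and naive library 2 the lowest in 70.

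Activated cells were set against naive cells to see how stimulation alters these genes early on. At 37 °C 24 mitochondrial ribosomal protein genes rose, 10 fell and 43 did not pass the test, which is 44.2% called, against 62.7% of all 13328 genes tested (edgeR quasi-likelihood test, Benjamini-Hochberg adjusted p under 0.05 over all genes). Their median log2 fold change was 0.072, against -0.0025 over all genes. At 39 °C 28 rose, 9 fell and 40 did not pass, 48.1% against 58.9% of all genes, with medians of 0.13 and -0.0027. The shares that rose, 31.2% at 37 °C and 36.4% at 39 °C, stood beside 30.9% and 29.2% of all genes, and the shares that fell, 13% and 11.7%, beside 31.8% and 29.8%. Fold changes were small: only Mrps6, Mrps18b and Mrpl12 at 37 °C, and Mrps6, Mrps18b and Mrpl17 at 39 °C, were called and differed by 2-fold or more, all of them higher, beside 10.8% of all genes higher and 10.5% lower by as much at 37 °C and 9.34% and 9.32% at 39 °C. At 37 °C, 26 of the 77 had all activated libraries above all naive ones and 9 all below. Of all genes 65.4% did not overlap, 32.7% above and 32.7% below. At 39 °C 25 lay above and 6 below, beside 61.3% of all genes, 30.8% above and 30.5% below.

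Both activation comparisons use the same naive libraries, so they are not independent of each other. All 24 genes that rose at 37 °C were also called higher at 39 °C, where Mrpl45, Mrpl32, Mrpl35 and Mrpl36 were called in addition. These 4 calls were all lost with upper-quartile scaling and without 39 °C library 1 or naive library 2 or 3. Of the 10 that fell at 37 °C, 9 were called lower at 39 °C and Mrpl57 was not, at -0.23 ± 0.14 (log2 fold change ± SE). The call of Mrpl57 at 37 °C was itself lost without 37 °C library 2 or 3 or naive library 1 or 3. The balance of the calls depends on the scaling and on single naive libraries. With upper-quartile scaling, which shifts the median of all genes to -0.14 at 37 °C and -0.13 at 39 °C, 20 were higher and 20 lower at 37 °C, and 19 and 14 at 39 °C. Without naive library 1 the counts were 31 higher and 9 lower at 37 °C and 39 and 6 at 39 °C, and without naive library 2 they were 22 and 17, and 23 and 13. Without 39 °C library 3 the number lower at 39 °C was 4. With the summed cytosolic ribosomal protein level as a covariate 53 were higher and 4 lower at 37 °C and 55 and 2 at 39 °C. At 37 °C the range of that sum does not overlap the naive range, so covariate and group cannot be told apart there. At 39 °C libraries 2 and 3, at 95107 and 85039 CPM, also lie below the lowest naive library at 100785 CPM. All 9 libraries share 1 slope in that fit, so covariate and group are only partly separable at 39 °C.

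**Figure D2:**
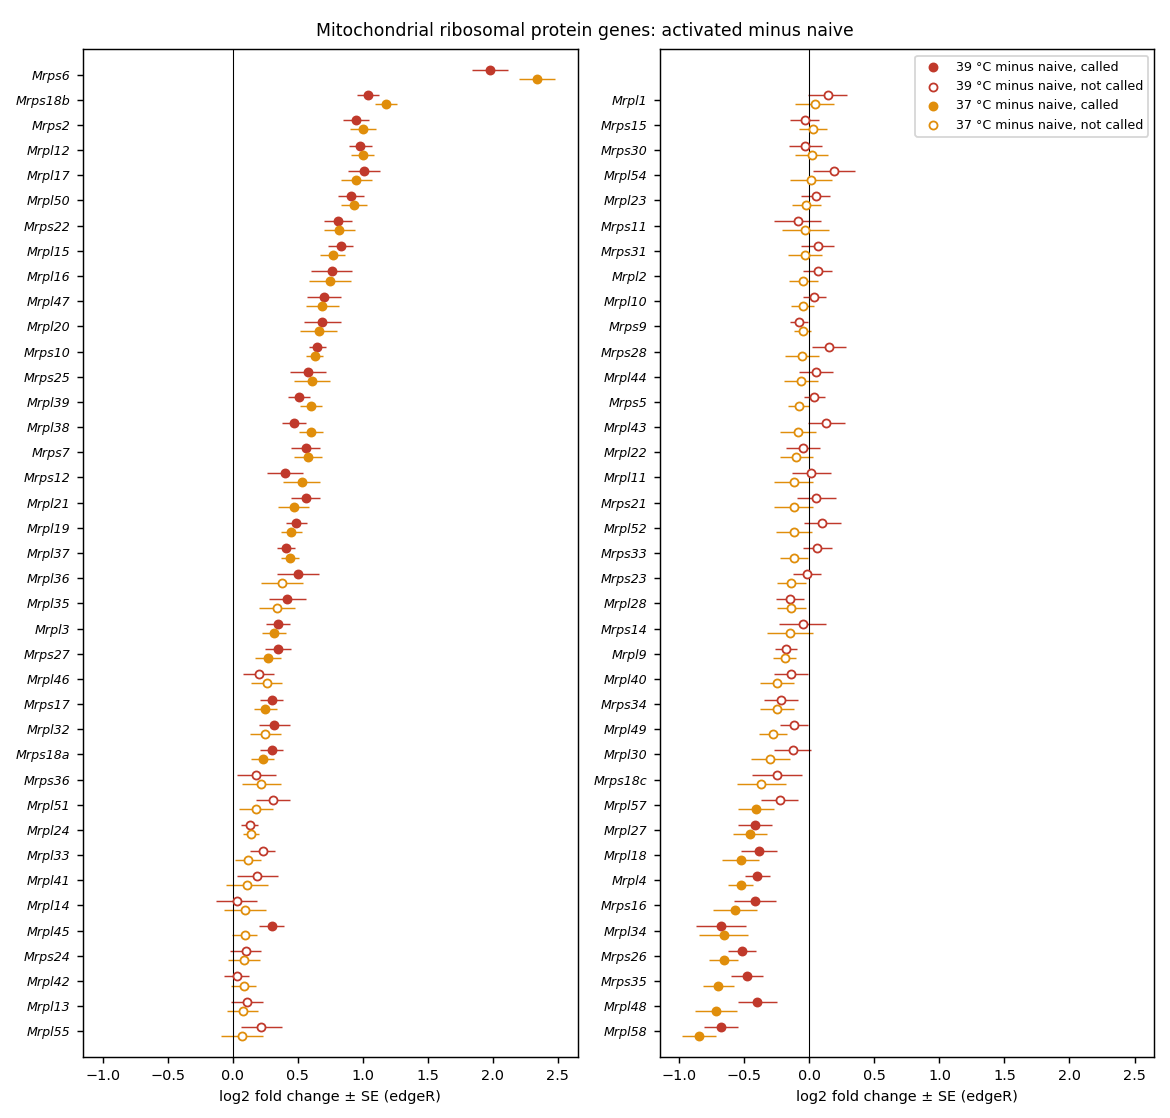
Log2 fold change with its standard error (x axis) for each of the 77 tested genes (y axis), ordered by the comparison of 37 °C with naive, with 39 °C against naive in red and 37 °C against naive in orange. Filled points passed the test and open ones did not. Mrps6 stands apart at 2.34 for 37 °C and 1.98 for 39 °C against naive, and the lowest value for 37 °C against naive is that of Mrpl58 at -0.85.

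Of the small-subunit proteins 10 of 26 genes rose and 3 fell at each temperature, which is 38.5% and 11.5%, beside 29.2% and 29.8% of all genes at 39 °C and 30.9% and 31.8% at 37 °C. Mrps6, counterpart of a bacterial protein of the small-subunit platform, had the largest change of all members. It lay at 37.8, 37.6 and 32.8 CPM at 39 °C, 45.3, 43.4 and 50.4 CPM at 37 °C and 11.7, 7.08 and 8.74 CPM in naive cells. All activated libraries were above all naive ones, and all 37 °C libraries above all 39 °C ones. Against naive cells the log2 fold change was 1.98 ± 0.14 at 39 °C (edgeR adjusted p = 2.51e-07) and 2.34 ± 0.14 at 37 °C (adjusted p = 4.94e-08).

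Mrps6 (ENSMUSG00000039680, chr16:92058270-92112227, plus strand) does not stand alone at its locus. Slc5a3, which encodes the sodium-coupled transporter of myo-inositol that osmotic stress is known to induce, starts on the same strand, and the RefSeq starts of the 2 genes lie 14 bases apart, so that their promoter windows are nearly the same stretch. The annotations share 159 exon bases, 10.4% of those of Mrps6, and the predicted gene Gm49711 shares 305. Slc5a3 lay at 166, 176 and 186 CPM at 39 °C, 245, 282 and 258 CPM at 37 °C and 16.2, 19.8 and 15.4 CPM in naive cells. None of the groups overlap, and the order of the groups is that of Mrps6. Its log2 fold change was 3.36 ± 0.10 at 39 °C and 3.93 ± 0.10 at 37 °C against naive cells (edgeR adjusted p = 1.34e-10 and 4.23e-11). Whether reads of one gene were counted for the other was not tested.

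**Figure D3:**
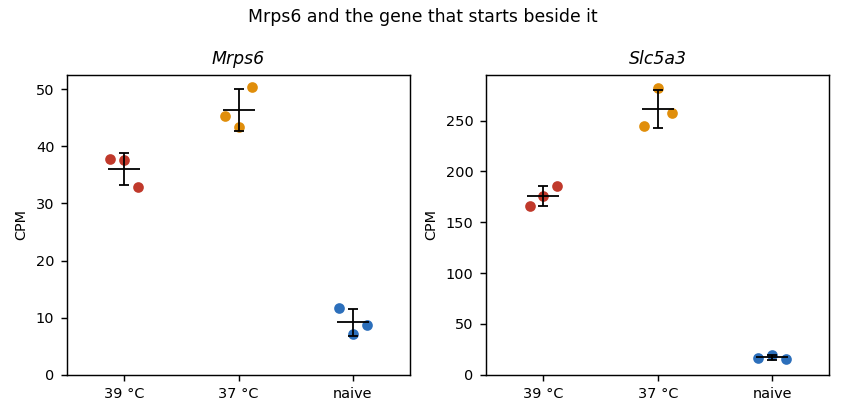
Levels of Mrps6 and Slc5a3 in CPM in each library of the 39 °C, 37 °C and naive groups, with means and SD (n = 3). In both genes the 37 °C libraries are highest, the 39 °C libraries lower and the naive libraries lowest, with no overlap.

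Mammals have 3 relatives of the bacterial protein S18, and the genes of Mrps18b and Mrps18a were called higher. Mrps18b, in the small subunit, rose in all activated libraries, with 29.2, 27.1 and 25.8 CPM at 39 °C, 31.4, 30.5 and 28.4 CPM at 37 °C and 13.2, 12.7 and 14.0 CPM in naive cells. The log2 fold change was 1.04 ± 0.087 at 39 °C and 1.18 ± 0.087 at 37 °C (edgeR adjusted p = 7.99e-07 and 2.44e-07), and 30.5% of its exon bases are shared with the antisense gene Gm16279, whose reads could not be set apart. Mrps18a, in the large subunit, lay at 40.4 to 46.3 CPM at 39 °C, 40.8 to 42.7 CPM at 37 °C and 31.1 to 38.5 CPM in naive cells, a log2 fold change of 0.30 ± 0.089 at 39 °C and 0.23 ± 0.089 at 37 °C (edgeR adjusted p = 0.0122 and 0.0436). The call at 37 °C was lost with upper-quartile scaling (0.092, edgeR adjusted p = 0.385), with every gene that had any count kept (0.22, adjusted p = 0.0764), with the most abundant genes removed before scaling (0.21, adjusted p = 0.0568) and by DESeq2 (0.22, adjusted p = 0.088). It was also lost on leaving out any 37 °C library, naive library 2 or 3, or 39 °C library 1 or 2, with log2 fold changes of 0.14 to 0.25. Mrps18c, which takes the place of bacterial S18 in the small subunit, had 7.54 to 7.8 CPM at 39 °C, 5.38 to 8.62 CPM at 37 °C and 7.61 to 11.7 CPM in naive cells. Its groups overlap and it was not called, at -0.25 ± 0.19 at 39 °C and -0.37 ± 0.19 at 37 °C. Of its exon bases 23.2% are shared with Gm43511 on the same strand, and how reads in both were counted is not given.

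Mrps2, counterpart of bacterial S2, lay at 47.8, 42.4 and 41.9 CPM at 39 °C, 50.4, 43.0 and 43.7 CPM at 37 °C and 25.7, 21.2 and 21.8 CPM in naive cells, a log2 fold change of 0.95 ± 0.099 at 39 °C and 1.0 ± 0.099 at 37 °C. Mrps22, found only in mitochondria and mutated in a human oxidative phosphorylation deficiency, rose by 0.81 ± 0.11 at 39 °C and 0.82 ± 0.12 at 37 °C. Mrps12, counterpart of the S12 protein at the decoding site, lay at 27.4 to 34.2 CPM at 39 °C, 31.4 to 35.8 CPM at 37 °C and 18.4 to 28.7 CPM in naive cells and rose by 0.40 ± 0.14 at 39 °C and 0.53 ± 0.14 at 37 °C. For Mrps2 and Mrps22 no activated library reached down to a naive one, while for Mrps12 the 39 °C and naive libraries overlap. The call of Mrps12 at 39 °C (edgeR adjusted p = 0.0298) was lost with upper-quartile scaling and without 39 °C library 1 or 2 or naive library 2 or 3, with adjusted p up to 0.137. Mrps25, which also rose, shares most of its exon bases with Nr2c2 as given above.

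The small-subunit genes that fell were Mrps35, Mrps26 and Mrps16. Mrps35, found only in mitochondria, lay at 25.9, 25.6 and 27.1 CPM at 39 °C, 22.0, 23.0 and 22.6 CPM at 37 °C and 44.3, 30.2 and 35.2 CPM in naive cells. The 3 groups do not overlap, and the log2 fold change against naive was -0.48 ± 0.12 at 39 °C and -0.70 ± 0.12 at 37 °C (edgeR adjusted p = 0.00385 and 0.000289). With the cytosolic ribosomal protein covariate Mrps35 was not called at 39 °C (-0.21, edgeR adjusted p = 0.0979). Mrps26, also specific to mitochondria, lay at 51.2, 50.1 and 45.9 CPM at 39 °C, 48.2, 41.6 and 43.2 CPM at 37 °C and 80.6, 57.4 and 72.6 CPM in naive cells, with log2 fold changes of -0.52 ± 0.11 at 39 °C and -0.66 ± 0.11 at 37 °C. Mrps16, counterpart of bacterial S16 and mutated in a human mitochondrial disease, had -0.42 ± 0.16 at 39 °C and -0.57 ± 0.17 at 37 °C. The call of Mrps16 at 39 °C (adjusted p = 0.0448) was lost without any 37 °C library, 39 °C library 2 or 3 or naive library 1 or 3, down to -0.23 without naive library 1, and with the cytosolic ribosomal protein covariate its value was 0.086 at 37 °C and 0.081 at 39 °C. Mrps28, counterpart of bacterial S1, was not called, at 0.15 ± 0.13 at 39 °C and -0.056 ± 0.13 at 37 °C.

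Of the large-subunit proteins 18 of 50 genes rose and 6 fell at 39 °C, 36.0% and 12% beside 29.2% and 29.8% of all genes, and 14 rose and 7 fell at 37 °C, 28.0% and 14.0% beside 30.9% and 31.8%. The stalk of the large subunit, where translation factors dock, is built of Mrpl12 on the base proteins Mrpl10 and Mrpl11, and Mrpl12 is also reported to bind the mitochondrial RNA polymerase. Mrpl12 lay at 32.1, 31.9 and 30.1 CPM at 39 °C, 33.4, 31.2 and 31.1 CPM at 37 °C and 15.7, 14.4 and 17.6 CPM in naive cells. All activated libraries were above all naive ones, with log2 fold changes of 0.98 ± 0.089 at 39 °C and 1.0 ± 0.089 at 37 °C (edgeR adjusted p = 1.63e-06 and 1.23e-06). The base proteins did not follow in the calls. Mrpl10 had 39.6 to 45.5 CPM at 39 °C, 39.3 to 41.1 CPM at 37 °C and 36.7 to 45.3 CPM in naive cells, and Mrpl11 had 20.8 to 28.0 CPM at 39 °C, 19.4 to 24.1 CPM at 37 °C and 19.1 to 27.7 CPM in naive cells. Their groups overlap, and neither was called, at 0.038 ± 0.089 and 0.014 ± 0.15 for 39 °C and -0.053 ± 0.09 and -0.12 ± 0.15 for 37 °C. The difference between Mrpl12 and these 2 genes was not itself tested.

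**Figure D4:**
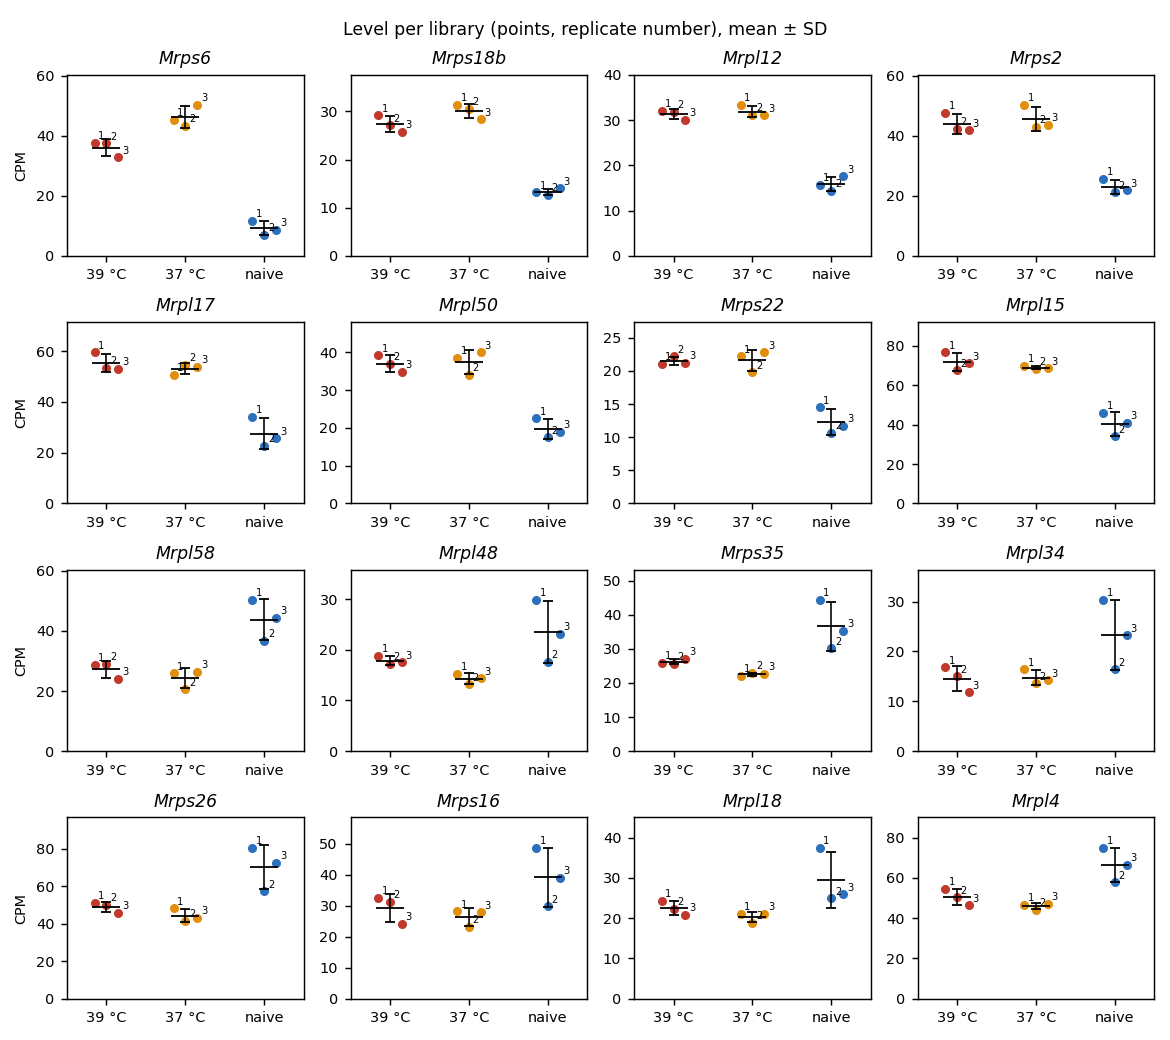
Levels in CPM (y axes) of the 8 genes that rose most and the 8 that fell most at 37 °C, in each library of the 39 °C, 37 °C and naive groups, with library numbers beside the points and bars for the mean ± SD (n = 3). Mrpl12 lies at 30.1 to 33.4 in the activated libraries and 14.4 to 17.6 in the naive ones, while Mrpl58 lies at 20.6 to 29.1 in the activated libraries and 36.8 to 50.3 in the naive ones.

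Mrpl17, counterpart of bacterial L17, rose, with 59.5, 53.5 and 53.0 CPM at 39 °C, 50.7, 54.6 and 53.9 CPM at 37 °C and 34.2, 22.7 and 25.7 CPM in naive cells, and log2 fold changes of 1.01 ± 0.12 at 39 °C and 0.95 ± 0.12 at 37 °C. Mrpl45, known to tie the ribosome to the inner membrane, lay at 32.0, 28.0 and 28.8 CPM at 39 °C, 25.4, 25 and 26.3 CPM at 37 °C and 27.0, 21.2 and 23.7 CPM in naive cells. It was called higher at 39 °C (0.30 ± 0.097, edgeR adjusted p = 0.0173) and at 37 °C had 0.091 ± 0.098 (adjusted p = 0.435). The call at 39 °C was lost with the scaling and libraries given above, with values down to 0.18, and with the covariate the gene was called at 37 °C as well (0.38, edgeR adjusted p = 0.00742). Mrpl4, counterpart of a protein that lines the bacterial tunnel, fell, with 54.6, 50.4 and 46.4 CPM at 39 °C, 46.6, 44.1 and 47.0 CPM at 37 °C and 75, 57.9 and 66.4 CPM in naive cells, and -0.40 ± 0.096 at 39 °C and -0.53 ± 0.096 at 37 °C. With the covariate Mrpl4 was not called at 39 °C (-0.14, edgeR adjusted p = 0.0921). Among other large-subunit proteins Mrpl50, found only in mitochondria, rose by 0.91 ± 0.10 at 39 °C and 0.93 ± 0.10 at 37 °C, and Mrpl15, counterpart of bacterial L15, by 0.83 ± 0.097 at 39 °C and 0.77 ± 0.097 at 37 °C. No activated library of Mrpl17, Mrpl50 or Mrpl15 reached down to a naive one.

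The large-subunit gene with the lowest value was Mrpl58. Mrpl58 (ICT1), a peptidyl-tRNA hydrolase that frees stalled mitoribosomes and is also built into the large subunit, lay at 28.8, 29.1 and 24 CPM at 39 °C, 25.9, 20.6 and 26.4 CPM at 37 °C and 50.3, 36.8 and 44.3 CPM in naive cells. All activated libraries were below all naive ones, and the log2 fold change was -0.68 ± 0.13 at 39 °C and -0.85 ± 0.13 at 37 °C (edgeR adjusted p = 0.000671 and 0.000125). Mrpl48 lay at 18.8, 17.2 and 17.5 CPM at 39 °C, 15.3, 13.2 and 14.4 CPM at 37 °C and 29.8, 17.6 and 23.1 CPM in naive cells, with -0.40 ± 0.15 at 39 °C and -0.72 ± 0.16 at 37 °C. Mrpl18, counterpart of bacterial L18, lay at 20.8 to 24.3 CPM at 39 °C, 18.9 to 21.1 CPM at 37 °C and 24.9 to 37.5 CPM in naive cells, with -0.39 ± 0.14 at 39 °C and -0.53 ± 0.14 at 37 °C. Naive library 1 is the highest library of both genes, and the 39 °C and naive libraries of Mrpl48 overlap. Without naive library 1 their values at 39 °C were -0.20 and -0.17 and were no longer called. The call of Mrpl48 at 39 °C (adjusted p = 0.0431) was kept in the refits that left out 1 library only without naive library 2, and that of Mrpl18 (adjusted p = 0.0342) was also lost without 37 °C library 1 or 39 °C library 2 or 3. With the cytosolic ribosomal protein covariate neither gene was called at either temperature.

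Mrpl34, counterpart of bacterial L34, also fell, with 16.8, 15 and 11.8 CPM at 39 °C, 16.4, 13.6 and 14.2 CPM at 37 °C and 30.3, 16.4 and 23.2 CPM in naive cells. The lowest naive library, library 2, lies at the level of the highest activated ones. Its log2 fold change was -0.68 ± 0.19 at 39 °C and -0.66 ± 0.19 at 37 °C (edgeR adjusted p = 0.00992 and 0.0108), the first was not called without 39 °C library 3 (-0.54, adjusted p = 0.0502), and with the covariate the values were -0.092 at 39 °C and 0.12 at 37 °C. Mrps30, a large-subunit protein found only in mitochondria, had -0.031 ± 0.13 at 39 °C and 0.016 ± 0.13 at 37 °C, and the dehydrogenase protein gene Mrps36 0.18 ± 0.15 at 39 °C and 0.22 ± 0.15 at 37 °C. Neither was called and their groups overlap.

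By class, genes with a bacterial counterpart gave 18 higher and 5 lower of 46 at 39 °C, 39.1% and 10.9%, and those found only in mitochondria 10 and 4 of 30, 33.3% and 13.3%, beside 29.2% and 29.8% of all genes. At 37 °C the counts were 15 and 5, 32.6% and 10.9%, and 9 and 5, 30.0% and 16.7%, beside 30.9% and 31.8% of all genes. Among the 45 genes with no exon base shared with another gene 14 rose and 5 fell at 37 °C, and 17 and 4 at 39 °C. The median exon length was 3044 bases for the genes that rose at 37 °C, 2916 for those that fell and 1761 for those not called. In the promoters, genes with the ETS letters held 8 that rose, 7 that fell and 9 not called at 37 °C, and genes without them 13, 1 and 30. Of the 12 genes with the YY1 letters 5 rose and 7 were not called, against 16 that rose, 8 that fell and 32 not called among those without. In the same order, genes with the full NRF1 letters held 3, 2 and 8 and those with TGCGCA 6, 3 and 12. Genes with the E-box held 2, 0 and 3, and those with the Sp1 letters 6, 2 and 16. Of all genes tested 30.9% rose and 31.8% fell at 37 °C. These splits were looked at with the calls known and carry no test.

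Many of the genes start close to the start of a neighbour on the opposite strand, and in some of these pairs the genes share exon bases. Of the 78, 33 (42.3%) had a protein-coding gene that starts on the opposite strand within 1000 bases, against 17.4% of the 11159 protein-coding genes tested. Their calls did not always go the same way. Of the 8 genes with a partner that rose at 37 °C, 3 had a partner that rose, 1 a partner that fell and 4 a partner not called, and of the 4 that fell 1 had a partner that rose and 3 a partner not called. Among the 29 tested partners that are no members, 31.0% rose and 20.7% fell, beside 30.9% and 31.8% of all genes. Mrps18b and Ppp1r10, a regulatory subunit of protein phosphatase 1, start 45 bases apart and both rose, with a log2 fold change at 37 °C of 1.18 ± 0.087 for Mrps18b and 1.03 ± 0.087 for Ppp1r10. Mrpl18 fell while Tcp1, a subunit of the cytosolic chaperonin whose start lies 644 bases away, rose by 1.02 ± 0.064. Mrpl18 and Tcp1 share 141 exon bases, 10.1% of those of Mrpl18, and whether counting used the strand is not given in the sources used here. Fau, a cytosolic ribosomal protein gene that starts 59 bases from Mrpl49, fell by 0.65 ± 0.14, and Mrpl49 was not called at -0.28. In Mrps12 the member rose and Sars2, a mitochondrial seryl-tRNA synthetase gene 172 bases away, was not called at -0.13 ± 0.091.

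Cells activated at 39 °C and at 37 °C differ, per the labels, in the temperature of the incubator, and the question is whether fever-range heat alters these genes. None of the 77 genes was called by edgeR, with 2 at an unadjusted p under 0.05 and 0 called by DESeq2. Of all genes tested edgeR called 0.758%, 0.135% higher and 0.623% lower, and 7.96% had an unadjusted p under 0.05. The log2 fold changes ran from -0.36 to 0.32 around a median of 0.07, with standard errors of 0.063 to 0.20, and the median over all genes was 0.0041. A total of 54 were positive and 23 negative, against 6811 positive of 13328. This lean moved with single libraries: without 39 °C library 1, 40 were positive with a median of 0.0022, without 39 °C library 3, 65 were positive, and with the cytosolic ribosomal protein covariate 30 were positive with a median of -0.02. In 8 genes all 39 °C libraries lay above all 37 °C ones and in 2 all below, beside 10.7% and 10.3% of all genes, 20.9% together.

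The genes with the smallest p were Mrps6, Mrpl45, Mrpl48 and Mrps35, whose values in every library stand above. Mrps6 was lower at 39 °C than at 37 °C in every library, with a log2 fold change of -0.36 ± 0.13 (edgeR adjusted p = 0.42). It was called in the fit of these 6 libraries alone (adjusted p = 0.0225), without naive library 1 (-0.36, adjusted p = 0.0445) and with the cytosolic ribosomal protein covariate (-0.49, adjusted p = 6.13e-05). Its neighbour Slc5a3 fell by 0.57 ± 0.089 (adjusted p = 0.0103). Mrpl45 had 0.21 ± 0.097 (adjusted p = 0.625), Mrpl48 0.32 ± 0.16 (adjusted p = 0.697) and Mrps35 0.22 ± 0.12 (adjusted p = 0.737), all from edgeR. In these 3 genes all 39 °C libraries were above all 37 °C libraries. A test that misses the threshold does not show that levels were the same.

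**Figure D5:**
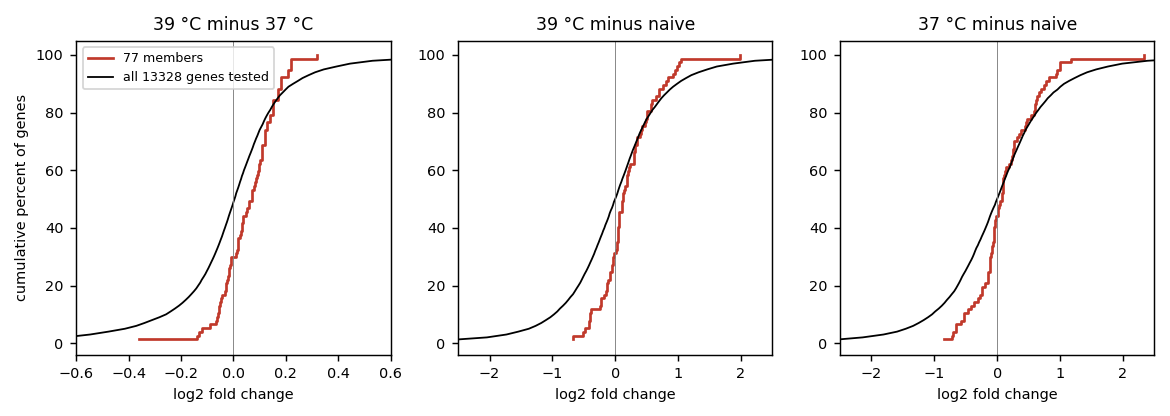
Cumulative share of the 77 genes and of all 13328 genes tested over the log2 fold change, for 39 °C against 37 °C, 39 °C against naive and 37 °C against naive. The members' curve is steeper than that of all genes in each, and Mrps6 is the lone point at the far right of both comparisons with naive cells.

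Lists of other genes that serve mitochondrial translation are read beside all genes tested, of which 58.9% were called at 39 °C and 62.7% at 37 °C. Of 5 mitoribosomal proteins with other names, Ptcd3 rose by 0.55 ± 0.062 at 39 °C and 0.64 ± 0.062 at 37 °C, and Dap3, a GTP-binding protein of the small subunit, fell, at -0.27 ± 0.081 at 39 °C and -0.33 ± 0.081 at 37 °C. Chchd1 (0.32 at 39 °C and 0.29 at 37 °C), Aurkaip1 (-0.095 at 39 °C and -0.24 at 37 °C) and Gadd45gip1 (0.23 at 39 °C and 0.22 at 37 °C) were not called. Of these 5, 40.0% were called at each temperature, and the call of Dap3 was lost with the cytosolic ribosomal protein covariate at both and at 39 °C without 39 °C library 2. Of 15 translation factors 7 rose and 5 fell at 39 °C, and 7 and 4 at 37 °C, which is 80.0% and 73.3% called, and over the refits the number lower ran from 2 to 6 at each temperature. C1qbp, a matrix protein needed for mitochondrial translation, lay at 198, 195 and 176 CPM at 39 °C, 203, 184 and 201 CPM at 37 °C and 78.4, 51.9 and 61.7 CPM in naive cells, a log2 fold change of 1.57 ± 0.12 at 39 °C and 1.61 ± 0.12 at 37 °C. Lrpprc, which stabilises mitochondrial messages, rose by 0.87 ± 0.075 at 39 °C and 1.03 ± 0.075 at 37 °C, and the elongation factor gene Gfm1 by 0.70 ± 0.067 at 39 °C and 0.82 ± 0.067 at 37 °C. Mtrf1, of the release factor family and named after its values were seen, fell, at -0.73 ± 0.21 at 39 °C and -1.04 ± 0.22 at 37 °C.

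Of 25 genes of mitoribosome assembly and rRNA modification 8 rose and 8 fell at 39 °C, and 10 and 9 at 37 °C, 64.0% and 76.0% called. With the cytosolic ribosomal protein covariate 4 were lower at 39 °C and 2 at 37 °C, and with upper-quartile scaling 11 and 13. The RNA methyltransferase gene Trmt2b fell, at -0.93 ± 0.10 at 39 °C and -1.11 ± 0.10 at 37 °C, while the helicase gene Dhx30 rose by 0.60 ± 0.074 at 39 °C and 0.67 ± 0.074 at 37 °C and Mrm3, which methylates the large ribosomal RNA, by 1.45 ± 0.15 at 39 °C and 1.40 ± 0.16 at 37 °C. Of 18 genes of mitochondrial transcription and RNA processing 7 rose and 2 fell at 39 °C, and 5 and 2 at 37 °C, 50.0% and 38.9% called. Without naive library 1 the number higher was 11 at 39 °C and 9 at 37 °C, with the covariate 11 and 10, and with upper-quartile scaling 4 and 5, while the number lower reached 4 at 37 °C with that scaling and without naive library 2. The RNA helicase gene Supv3l1 (0.97 ± 0.079 at 39 °C and 0.92 ± 0.079 at 37 °C) and the tRNA-processing gene Elac2 (0.76 ± 0.076 at 39 °C and 0.72 ± 0.076 at 37 °C) rose. Polg2, listed here although it encodes a subunit of the mitochondrial DNA polymerase, fell (-0.75 ± 0.068 at 39 °C and -0.61 ± 0.067 at 37 °C). Of 17 mitochondrial aminoacyl-tRNA synthetases 4 rose and 4 fell at 39 °C, and 5 and 4 at 37 °C, 47.1% and 52.9% called. Upper-quartile scaling gave 3 higher and 7 lower at both temperatures. Among them were Yars2 at 0.95 ± 0.13 at 39 °C and 1.0 ± 0.13 at 37 °C, Tars2 at 0.26 ± 0.071 at 39 °C and 0.40 ± 0.071 at 37 °C and Fars2 at -0.51 ± 0.11 at 39 °C and -0.82 ± 0.11 at 37 °C. Between 39 °C and 37 °C no gene of these 5 lists was called by edgeR or by DESeq2, with unadjusted p under 0.05 in 0 of 5, 1 of 15, 1 of 25, 1 of 18 and 3 of 17 genes in the order given.

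The ribosomes of the cytosol and the messages of mitochondrial DNA give the scale. The cytosolic ribosomal protein list was drawn by symbol and can hold paralogs. Of its 82 tested genes 72 (87.8%) fell and 3 (3.66%) rose at 37 °C, beside 31.8% and 30.9% of all genes. At 39 °C 62 (75.6%) fell and 3 (3.66%) rose, beside 29.8% and 29.2%. Their median log2 fold change was -0.55 at 37 °C and -0.42 at 39 °C, against 0.072 and 0.13 for the mitochondrial ones. These medians describe the lists and no test compares them. Of the 13 protein genes of the mitochondrial genome 10 passed the count filter. At 37 °C 7 of these (70.0%) fell and 0 rose, beside 31.8% and 30.9% of all genes. At 39 °C 3 (30.0%) fell and 0 rose, beside 29.8% and 29.2% of all genes. All 10 had negative log2 fold changes at both temperatures.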

How the data were processed

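RNA of 9 libraries was measured. TRIzol served for extraction and a TruSeq RNA kit for library preparation, per the labels' protocols. The deposited files hold raw read counts per gene, 1 table per library, not normalised. HTSeq, HISAT2, FastQC and DESeq2 are named, with GRCm38 as build, per the submitters' processing notes, while their roles, their versions, the annotation and whether counting used strand are not given in the sources used here. Each table holds gene IDs and 1 count column, which was used, and the tables are named in the style of STAR gene counts although the notes do not name STAR, so how reads of genes that overlap on opposite strands were assigned is unknown. Symbols and coordinates come from GENCODE for 55480 of 55573 gene IDs.

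Genes passing filterByExpr (minimum count 10, minimum total 15) entered 1 quasi-likelihood model of all 9 libraries with TMM scaling and 6 residual degrees of freedom (edgeR 4.0.16 under R 4.3.3). The tests are 2-sided, and p-values were adjusted by Benjamini-Hochberg over 13328 genes with 0.05 as the threshold. The fold change over the root of its F statistic gave each standard error. CPM uses the scaled library sizes, and RPKM the union of exons. The fit was tested on simulated counts. Alternatives were other scalings and filters, a replicate block, 6 libraries alone, DESeq2 1.42.0, stricter thresholds and leaving out each library. A cytosolic ribosomal protein covariate and a correction for gene length were added after the data were seen. The members and lists were chosen with earlier results of these data known. Genes named are the 8 called members that rose most and the 8 that fell most at 37 °C against naive, the 3 of each at 39 °C, the 4 with the smallest p between temperatures, the 3 highest and 3 lowest by RPKM, every member that failed the filter, up to 3 called genes of each other list and 13 members and 5 relatives fixed by name. Neighbouring genes, Mtrf1, Mrps21 and Mrpl1 and the genes called at 1 temperature only were chosen after their values were seen.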

Additional observations from a re-analysis of the deposited data

How the results depend on the processing

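The spread between 3 libraries limits what can be seen: standard errors of the members had a median of 0.12 on the log2 scale. Of the calls at 37 °C against naive, 20 of 24 higher and 4 of 10 lower were kept in all 20 refits, and at 39 °C 19 of 28 and 2 of 9. The lower calls of Mrpl18, Mrpl27, Mrpl34, Mrpl48 and Mrps16 at 37 °C were lost only with the cytosolic ribosomal protein covariate. That covariate cannot be told apart from the group at 37 °C. The lower call of Mrpl57 was also lost on leaving out single libraries. The number higher ran from 21 to 31 at 37 °C and from 21 to 39 at 39 °C when 1 library was left out, and the number lower from 9 to 17 and from 4 to 13. Upper-quartile scaling gave 20 lower at 37 °C and 14 at 39 °C. The cytosolic ribosomal protein covariate gave 53 higher and 4 lower at 37 °C and 55 and 2 at 39 °C. A minimum of 2-fold left 3 higher and 0 lower at each temperature, and an adjusted p under 0.01 left 5 lower at 39 °C. Between 39 °C and 37 °C the number lower was 1 (Mrps6) in the 6 libraries alone, with the covariate and without naive library 1, a range of 0 to 1 when 1 library was left out.

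Some values near 0, and some falls under the covariate, changed sign. At 37 °C against naive the covariate gave 0.12 for Mrpl34, 0.086 for Mrps16, 0.14 for Mrpl10, 0.38 for Mrpl11, 0.10 for Mrps18c and 0.37 for Mrps28, and at 39 °C 0.046 for Mrpl48, 0.081 for Mrps16 and 0.012 for Mrpl18. The length correction gave 0.061 for Mrpl10, 0.082 for Mrps28 and -0.033 for Mrps30. Mrps30 was at -0.0062 with library size scaling and -0.12 with upper-quartile scaling, where Mrpl45 was at -0.043. Leaving out 1 library moved Mrpl10 from -0.14 (without naive 2) to 0.0066 (naive 3), Mrpl11 from -0.25 (naive 2) to 0.00084 (naive 1), Mrps28 from -0.16 (naive 2) to 0.04 (naive 1), and Mrps30 between -0.096 (naive 2) and 0.15 (naive 1), with -0.07 without 37 °C library 3 and -0.0011 without naive 3. The cause was not tested.

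With the longest transcript as length, Mrpl24 had 80.5, Mrpl52 55, Mrpl54 56.8, Mrpl48 4.33 and Mrps35 6.17 RPKM. Same-numbered libraries correlated at -0.171 to 0.33, and 0 of 9 libraries matched their own number best in both other groups. With 3 libraries per group such correlations cannot decide whether the replicate numbers pair the libraries, and the labels do not say. With the replicate block 27 were higher and 12 lower at 37 °C, 30 and 9 at 39 °C and 0 and 0 between the temperatures. The promoter windows have no alternative setting.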
